A study of Mus musculus with 6 samples.

Results

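E2F1 peaks that stood in the list of 1 replicate and were overlapped by no peak of the other are described here, each replicate on its own. They were chosen by position: a peak of an E2F1 list was a member when no peak of the other E2F1 list overlapped it by 1 bp or more, on chromosomes 1 to 19, X and Y. Replicate 1 had 763 such peaks among 7828, which is 9.75% of its list, and replicate 2 had 949 among 8018, or 11.8%. Together these were 1712 of 15846 E2F1 peaks on those chromosomes, out of 16291 peaks in the 4 lists of the series. The remaining 7065 and 7069 peaks are called shared below.

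The material was NIH/3T3, an established line of mouse embryonic fibroblasts, held in low serum for 48 hours and then given doxycycline for 12 hours, at 500 ng/ml per the treatment protocol, whereas the names of the deposited lists carry 200 with no unit. Cells carried a construct in which doxycycline induces either E2F1 (2 libraries) or an empty vector, EV (2 libraries). The drug was given to both kinds of cell, so EV controls for it, and 2 further samples, input DNA of EV cells, were not analysed here. Whether the replicates came from separate cultures, whether the lines are clones, and which antibody was used are not given in the sources used here. Chromatin immunoprecipitation with sequencing (ChIP-seq) recovers DNA bound by a protein and does not measure expression, so the identity of the cells could not be checked from marker genes.

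E2F1 is a transcription factor that binds DNA with a DP partner and activates genes needed for entry into S phase. In resting cells, pocket proteins of the RB family hold E2F factors and repress those genes, and phosphorylation by cyclin-dependent kinases releases them. E2F sites lie mostly in CpG-rich promoters close to the start of transcription, and resting fibroblasts are a common model for the return to the cell cycle.

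Promoter sequences are printed for the 3 members of highest fold at a protein-coding start in each replicate, to show the bases before those starts. For each replicate, 1 more member is printed that was chosen after the values were seen: the one of highest fold whose bases hold a longer E2F motif. The promoter of Ccne1, which encodes cyclin E1, the partner of CDK2 at the start of S phase, had the shared peak of highest score that met the same conditions and is printed beside them. Each line gives the 250 bases before the gene start, 5′ to 3′ on the strand of the gene, from RefSeq (GRCm38.p6). Capitals mark exact matches on either strand to a longer motif (TTTCCCGC, TTTCGCGC, TTTGCCGC or TTTGGCGC) or a shorter one (GGCGGGAA or GGCGCGAA), and where matches overlap the whole run is in capitals.
Psmd2, chr16:20651402-20651651, plus strand, replicate 1: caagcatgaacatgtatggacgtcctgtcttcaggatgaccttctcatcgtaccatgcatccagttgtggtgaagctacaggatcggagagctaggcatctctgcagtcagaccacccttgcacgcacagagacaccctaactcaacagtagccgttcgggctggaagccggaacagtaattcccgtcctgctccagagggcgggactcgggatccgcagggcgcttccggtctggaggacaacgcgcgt
Rps3, chr7:99483710-99483959, minus strand, replicate 1: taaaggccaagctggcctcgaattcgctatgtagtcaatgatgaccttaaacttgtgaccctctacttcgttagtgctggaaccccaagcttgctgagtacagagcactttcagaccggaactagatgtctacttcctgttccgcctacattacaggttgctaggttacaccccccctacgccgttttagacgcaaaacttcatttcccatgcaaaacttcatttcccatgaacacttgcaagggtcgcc
Fam122b, chrX:53269806-53270055, minus strand, replicate 1: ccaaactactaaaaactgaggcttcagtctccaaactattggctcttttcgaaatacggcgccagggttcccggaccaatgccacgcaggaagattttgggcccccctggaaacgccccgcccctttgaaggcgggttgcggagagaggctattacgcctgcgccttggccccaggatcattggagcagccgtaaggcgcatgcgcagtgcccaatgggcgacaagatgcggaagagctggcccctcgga
Thoc2, chrX:41911902-41912151, minus strand, replicate 1, highest fold with a longer match: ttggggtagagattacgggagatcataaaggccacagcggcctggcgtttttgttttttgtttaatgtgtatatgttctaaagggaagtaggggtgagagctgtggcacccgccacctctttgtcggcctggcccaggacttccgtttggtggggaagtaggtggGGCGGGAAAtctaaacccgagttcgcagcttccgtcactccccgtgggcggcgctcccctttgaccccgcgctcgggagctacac
Rsbn1, chr3:103913870-103914119, plus strand, replicate 2: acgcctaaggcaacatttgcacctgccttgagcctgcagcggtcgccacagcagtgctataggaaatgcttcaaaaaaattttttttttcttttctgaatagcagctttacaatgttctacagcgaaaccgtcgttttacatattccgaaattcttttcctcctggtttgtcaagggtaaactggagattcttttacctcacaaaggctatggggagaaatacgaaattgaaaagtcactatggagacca
Itm2b, chr14:73385290-73385539, minus strand, replicate 2: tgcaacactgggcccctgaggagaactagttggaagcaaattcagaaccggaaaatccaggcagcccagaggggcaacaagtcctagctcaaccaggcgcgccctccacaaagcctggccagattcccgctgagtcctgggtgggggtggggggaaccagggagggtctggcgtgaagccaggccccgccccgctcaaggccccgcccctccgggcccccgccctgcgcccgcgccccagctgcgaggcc
Atf2, chr2:73892640-73892889, minus strand, replicate 2: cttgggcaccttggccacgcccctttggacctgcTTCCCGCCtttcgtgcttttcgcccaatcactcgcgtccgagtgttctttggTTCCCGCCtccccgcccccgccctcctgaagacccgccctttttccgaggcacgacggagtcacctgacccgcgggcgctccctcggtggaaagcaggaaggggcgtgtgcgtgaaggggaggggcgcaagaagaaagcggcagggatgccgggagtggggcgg
Med6, chr12:81595009-81595258, minus strand, replicate 2, highest fold with a longer match: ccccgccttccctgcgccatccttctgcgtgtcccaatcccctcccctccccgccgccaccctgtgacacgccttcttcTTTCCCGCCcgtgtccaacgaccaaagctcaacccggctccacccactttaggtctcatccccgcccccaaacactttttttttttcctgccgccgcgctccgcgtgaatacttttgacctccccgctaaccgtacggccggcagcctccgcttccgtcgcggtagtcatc
Ccne1, chr7:38107491-38107740, minus strand, shared, for comparison: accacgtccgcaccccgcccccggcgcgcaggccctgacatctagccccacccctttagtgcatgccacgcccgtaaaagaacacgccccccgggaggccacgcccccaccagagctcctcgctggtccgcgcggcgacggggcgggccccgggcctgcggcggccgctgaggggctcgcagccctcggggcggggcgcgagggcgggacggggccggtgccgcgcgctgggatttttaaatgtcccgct
Atf2 had 2 matches of the shorter motif, beginning 216 and 164 bases before the start. In Thoc2, a subunit of the THO complex that couples transcription to mRNA export, a shorter and a longer match overlapped, 85 and 84 bases before the start. Med6, a subunit of Mediator, had an overlapping pair at 171 and 170 bases. The other 6 windows held none of these letters, the shared Ccne1 promoter among them. The summit at Ccne1 lay 375 bp before the start, outside the bases printed, so that line does not show the bases at its summit. Nor do the lines of Psmd2, Rps3, Fam122b, Thoc2 and Rsbn1, whose summits lay 107 to 279 bp after the start. Summits at Itm2b, Atf2 and Med6 lay 23, 131 and 141 bp before the start, inside the bases printed.

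The peaks behind these sequences were read as follows. Fold is the authors' enrichment, the number of reads piled up at the summit plus 1 over the local background plus 1. Which control gave that background, input, EV or the library itself, is not given in the sources used here. The authors' score is 10 times −log10 of the q-value, and pileup and background in reads were solved from the deposited fold and p-value. Psmd2, a scaffold subunit of the regulatory particle of the proteasome, had a fold of 13.9 in replicate 1, from 46 reads over a background of 2.37. Its summit lay 224 bp after the gene start, and the nearest replicate 2 peak was 19839 bp away. Rps3, a protein of the small ribosomal subunit, also had a fold of 13.9, from 45 reads over 2.31. Its summit lay 199 bp after the start, so the peak covered 17 of the 250 bases printed. Fam122b on the X chromosome had a fold of 13.7, from 38 reads over 1.85, and Thoc2, also on the X chromosome, had 7.51.

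In replicate 2, Rsbn1 had the highest fold of all members, 22.4, from 63 reads over a background of 1.86, with the summit 107 bp after the start. Its promoter held 10 CpG dinucleotides in 300 bases (250 before and 50 after the start), at 44% GC. Itm2b, which encodes a membrane protein mutated in familial dementias, had a fold of 18.6, from 54 reads over 1.95. Atf2, a leucine-zipper transcription factor of the stress response, had 17.8, from 50 reads over 1.86. Its promoter, at 66% GC, held 28 CpG dinucleotides. Med6 had a fold of 12.9. All 4 of these folds lay above the median of the replicate 2 shared peaks, 12.6, and the shared Ccne1 peak had a fold of 65 in replicate 1.

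Most members were weaker than the shared peaks of their own list. Because the choice of members rests on the same lists, their strength is a description and was not tested. In replicate 1, the members' fold ran from 2.41 to 14.2 with a median of 5.97, against a median of 9.81 for the shared peaks. The median pileup was 22 reads in the members and 51 in the shared peaks. Replicate 2 members ran from 1.79 to 22.4 with a median of 6.47, against 12.6, and their median pileup was 24 reads, against 51. Members were also narrower, with a median width of 516 bp against 985 in replicate 1 and 482 bp against 865 in replicate 2. The quartiles of fold in the members, 5.36 to 6.68 in replicate 1 and 5.66 to 7.82 in replicate 2, lay below the lower quartile of the shared peaks, 6.91 and 8.15, in all 4 cases.

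The genome-wide level of background was taken as the lowest local background solved among a list's peaks, 1.85 and 1.86 reads. The deposited lists begin at a −log10 p of 10, which takes 16 reads at that level. Members crowded against that limit. A −log10 p under 12 was held by 283 of 763 replicate 1 members (37.1%, Wilson 95% interval 33.7 to 40.6) and by 4.18% of the shared peaks. In replicate 2 it was held by 259 of 949 members (27.3%, 24.6 to 30.2) and by 3.44% of the shared peaks. Intervals here and below cover counting error only, and each list comes from 1 library, so no test over samples was possible.

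The share of single-replicate peaks fell along the score in both lists. Each list was divided into 10 parts of equal size (deciles). The share was 45.5% in the lowest decile of replicate 1, 27.8% in the next, 15.2% in the one after and 0.383% in decile 7, and from decile 8 on it had 0 members. Replicate 2 went from 46.2% through 34.4% and 18.5% to 0.623% in decile 7 and 0.125% in each of the last 3. At or above the list's median score stood 7 members of replicate 1 and 24 of replicate 2.

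**Figure D1:**
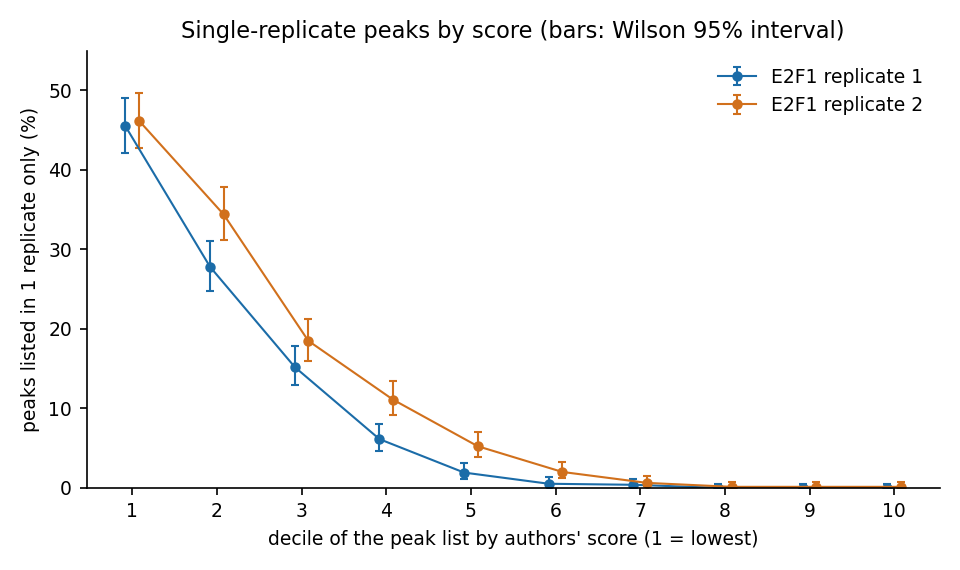
Share of peaks listed in 1 replicate only (y axis, percent) in each decile of the list by the authors' score (x axis, 1 is the lowest), for E2F1 replicate 1 (blue) and replicate 2 (orange), with Wilson 95% intervals as bars. Both curves start near 46% (45.5% and 46.2%) and are below 1% from decile 7 on.

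The strong exceptions were few and were of more than 1 kind. In replicate 1, the member of highest fold and score lay outside all genes, at chr15:81522916-81523739, with a fold of 14.2 and 46 reads. The nearest protein-coding start, that of Rbx1, the RING subunit of cullin ubiquitin ligases, was 56927 bp away. Det1, a substrate adaptor of a ubiquitin ligase that acts on Jun, had a fold of 10.8 with 43 reads. Pdss1, which makes the side chain of coenzyme Q, had 10.9 with 35 reads. Both ranked among the first 10 by score and below the first 10 by fold. The others of the first 10 by fold were Ctif, a factor of cap-dependent translation (11.9), Rnf135, a ubiquitin ligase of antiviral signalling (11.6), Lancl1 (11.3), N4bp2l2 (11.2), Osbpl9, a member of the oxysterol-binding family (11), and Cdk11b, a kinase of transcription and splicing (10.9).

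In replicate 2, the peak with the second highest fold, 20.3, lay inside 9430038I01Rik, 1569 bp from its start. Chd2, a chromatin remodeller, followed with 17.8 at a site inside the gene, 3830 bp from the start. Hinfp, the transcription factor that drives histone H4 genes, had a peak at its start with a fold of 15.7 and 47 reads. A single peak with a fold of 15.7 served the starts of Ccdc191 and Qtrt2, the latter a subunit of the enzyme that puts queuine into tRNA. Cds2, which makes CDP-diacylglycerol, had 15.6. The shared start region of Blvrb, a biliverdin reductase, and Sptbn4, a spectrin, had 15.5, and Mef2c, a MADS-box transcription factor, had 15.4 inside the gene. Serhl had a fold of 13.1 with 57 reads.

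High scores did not always go with high folds. The member of highest score in replicate 2, at chr16:11143917-11144314 inside Zc3h7a, had a score of 2334, which ranked 232 in its list. Its 355 reads stood over a background of 31, 16.7 times the genome-wide level, and its fold of 11.1 ranked 4100. Cldn34d came second by score, with 309 reads over a background 35.9 times the genome-wide level and a fold of 4.59. Members with a local background of at least 5 times the genome-wide level numbered 21 in replicate 1 (2.75%, 1.81 to 4.17) and 9 in replicate 2 (0.948%, 0.5 to 1.79). The corresponding shares of shared peaks were 2.55% and 0.721%, with intervals that overlapped those of the members.

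EV peaks overlapped 16 of the 763 replicate 1 members (2.1%, 1.29 to 3.38) and 18 of the 7065 shared peaks (0.255%, 0.161 to 0.402). All 16 were overlapped by EV replicate 2 and 3 of them also by EV replicate 1. Of these 16, 15 stood on a background of at least 5 times the genome-wide level, and their median fold was 3.12. A cluster of 7 lay on chromosome 6, beside and inside the predicted genes Gm40363, Gm40365, Gm40367 and Gm52861, with backgrounds of 13.5 to 33.8 times the genome-wide level. The member of lowest fold, at chr13:119601137-119601611 inside Tmem267, had 263 reads on a background 58.8 times the genome-wide level. An EV replicate 2 peak over it stood on 91.9 times the level of its own list.

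Chaf1a, which encodes the large subunit of the histone chaperone CAF-1, differed from the other 15. Its member peak, inside the gene, stood on 1.88 times the genome-wide background with a fold of 6.49. The fold of the EV replicate 1 peak over it was 7.39, and that of EV replicate 2 was 168.5. In replicate 2, EV peaks overlapped 3 members (0.316%, 0.108 to 0.925), against 15 shared peaks (0.212%, 0.129 to 0.35). One of the 3 lay inside the non-coding gene 4930447K03Rik (fold 2.77) and one was the widest member, 3588 bp, at chr7:64474617-64478204 (fold 5.92). The last lay 116658 bp from Vmn1r238, on 41.7 times the genome-wide background.

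**Figure D2:**
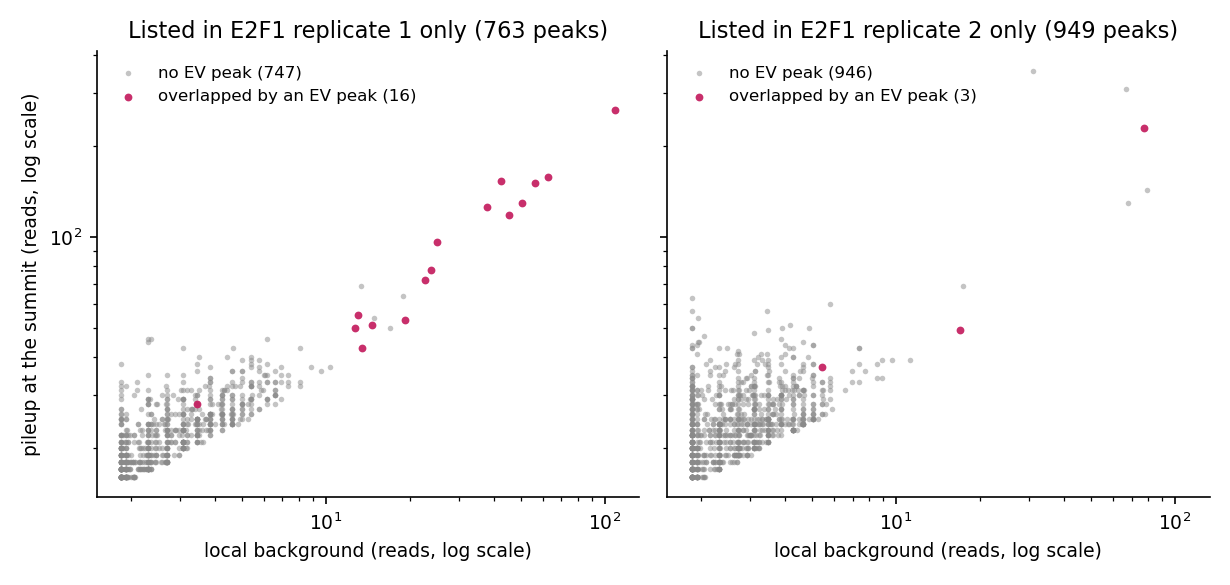
Reads at the summit (y axis, log scale) against the local background in reads (x axis, log scale) for each peak listed in replicate 1 only (left, 763 peaks) and in replicate 2 only (right, 949 peaks), with members overlapped by an EV peak in pink. In replicate 1, 15 of the 16 EV-overlapped members stand on a background of at least 5 times the genome-wide 1.85 reads, and in replicate 2, 2 of 3 do.

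The X chromosome held a larger share of members than either list as a whole. There, 33 of 168 replicate 1 peaks were members (19.6%, 14.3 to 26.3) and 30 of 165 replicate 2 peaks (18.2%, 13 to 24.8). Among the other chromosomes from 1 to 19 the share ran from 6.15% to 14.7% in replicate 1 and from 6.56% to 17.4% in replicate 2, where the highest, chromosome 13 in both cases, lay inside the interval of the X chromosome. On the Y chromosome 7 of 8 replicate 1 peaks were members, and the list of replicate 2 had 1 peak there, which was shared. Those 7 lay in 1 stretch of 74026 bp at the distal end, with a median background 7.09 times the genome-wide level. A further 3 replicate 1 members lay in 10868 bp at the distal end of X, by Erdr1 and Mid1, with a background 9.18 times the genome-wide level. The distal ends of X and Y carry the pseudoautosomal region, a stretch common to both, and how reads matching both were placed is not given in the sources used here.

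Runs of neighbouring members, at most 50 kb apart in their own list, held 135 replicate 1 members in 59 runs and 142 replicate 2 members in 66. The longest runs were the 7 on Y and a run of 5 in 26558 bp on chromosome 6 in replicate 1, and a run of 4 in 15619 bp near Apba2 in replicate 2. The replicate 2 list had no peak in the stretch on chromosome 6, nor did that of replicate 1 in the stretch near Apba2. All 5 members of the chromosome 6 run were overlapped by EV peaks, on a median background 24.6 times the genome-wide level. Folds in the run near Apba2 were 5.42 to 6.47, on a median background 1.35 times the genome-wide level. That run begins with the EV-overlapped member of 3588 bp, which stood on 2.92 times that level.

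By location, members stood less often at protein-coding starts than shared peaks did. A peak was placed at a start when its summit lay within 1000 bp of it. In replicate 1 this held for 498 of 763 members (65.3%, 61.8 to 68.6) and for 89.3% of shared peaks. The replicate 2 values were 726 of 949 (76.5%, 73.7 to 79.1) and 88.9%. Replicate 1 members lay inside a protein-coding gene in 15.1% of cases, against 4.73% of shared peaks, and outside all genes in 11.3%, against 2.6%. In replicate 2 those shares were 10% against 5.15% and 7.38% against 2.65%. Starts of non-coding genes took 37 members in replicate 1 (4.85%) and 41 in replicate 2 (4.32%), against 2.76% and 2.74% of shared peaks. Of these, 21 and 23 were starts of long non-coding RNAs (56.8% and 56.1%), against 72.8% and 72.2% of shared peaks at non-coding starts. Starts of tRNA genes were 5 and 2 (13.5% and 4.88%), against 5.64% and 6.19%.

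Weak shared peaks also stood at starts less often than strong ones, so the classes were set side by side among the 25% of each list with the lowest score. There, 413 of 652 replicate 1 members stood at a protein-coding start (63.3%, 59.6 to 67), against 85.9% of shared peaks (83.9 to 87.7). In replicate 2 the shares were 75.8% of members (72.6 to 78.8) and 82.9% of shared peaks (80.8 to 84.9). The intervals did not overlap in either list, and the gap in replicate 2 was the smaller. Scores were not fully matched inside that 25%. From the lowest decile to the next, the share of members fell from 45.5% to 27.8% in replicate 1 and from 46.2% to 34.4% in replicate 2. Fold hardly differed between the location classes: the median of replicate 1 members was 5.93 to 5.97 in each of the 5 classes, and that of replicate 2 members was 6.28 to 6.69.

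**Figure D3:**
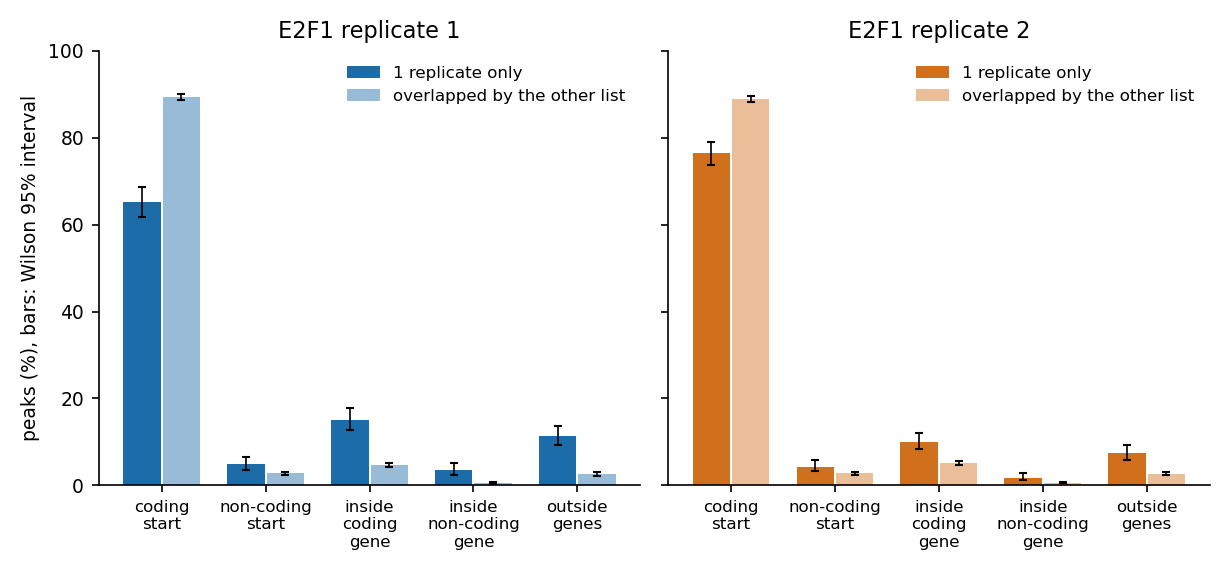
Share of peaks (y axis, percent, with Wilson 95% intervals) by the place of the summit (x axis) for peaks listed in 1 replicate only (dark) and shared peaks (light), replicate 1 left and replicate 2 right. Protein-coding starts hold 65.3% and 76.5% of the members and 89.3% and 88.9% of the shared peaks.

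At starts of known strand, the median summit of members lay farther into the gene than that of shared peaks in both lists, though the quartiles overlapped. The median summit was 169.5 bp after the start in the 420 replicate 1 members and 137 bp in the shared peaks. In the 590 replicate 2 members it was 90 bp, against 67. The quartiles were 96 to 250 bp against 8.5 to 211 in replicate 1, and -19.8 to 164.8 bp against -42 to 162 in replicate 2. Summits lay within 250 bp of the start for 67.4% of replicate 1 members (62.8 to 71.7) and for 75.7% of its shared peaks. The order was the other way in replicate 2, with 87.6% (84.7 to 90) and 82.7%.

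Promoters of members held fewer CpG dinucleotides than those of shared peaks over the whole lists. Among the 25% of lowest score, where scores were not fully matched, this held in replicate 1 but not in replicate 2. Windows of 300 bases held a median of 19 CpG dinucleotides in replicate 1 members and 21 in replicate 2 members, against 26 for shared peaks in both lists and 13 over all 21263 promoters of protein-coding genes in the RefSeq table. Median GC was 59.3% and 61% in the members, 65.3% and 65% in the shared peaks and 56.3% over all promoters. Among the 25% of lowest score alone, the median CpG count was 19 against 23 in replicate 1 and 21 against 21 in replicate 2, and GC was 59.3% against 62% in replicate 1 and 60.7% against 61% in replicate 2. The longer motif stood in 13 of 416 replicate 1 promoters (3.12%, 1.84 to 5.27), against 6% of those with a shared peak (5.38 to 6.67). For replicate 2 it was 27 of 590 (4.58%, 3.16 to 6.58), against 5.96% (5.35 to 6.64), and over all promoters it was 2.85%. The shorter motif, which can overlap the longer one, stood in 3.85% and 5.08% of members' promoters, in 7.36% and 7.37% of those with shared peaks and in 3.51% of all. The replicate 1 interval for the longer motif lay just below that of its shared peaks, and the replicate 2 intervals overlapped. Among the 25% of lowest score the intervals overlapped in both lists: the longer motif stood in 3.22% of replicate 1 members' promoters (1.81 to 5.67) against 4.25% (3.14 to 5.74), and in 5.19% of those of replicate 2 (3.48 to 7.67) against 4.44% (3.26 to 6.01). These matches are letters in a window and say nothing of which bases E2F1 touched.

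Distance to the other list set few members close to being shared. The median distance to the nearest peak of the other list was 35545 bp in replicate 1 and 43965 bp in replicate 2. Within 500 bp lay 33 replicate 1 members (4.33%) and 15 replicate 2 members (1.58%). Just inside the rule in replicate 1 were Cdk19, 95 bp from a replicate 2 peak, Asf1b at 107, En1 at 127, Capzb at 172 and a site 67780 bp from Lrrc74a at 192. Those in replicate 2 were the start shared by Slc4a2 and Cdk5 at 11 bp, Capzb at 172, the site near Lrrc74a at 192, Efcab11 at 202 and Ubn2 at 274. Just outside it, among shared peaks, small overlaps of replicate 1 were 70 bp at Snhg16, 90 at Rfx1, 102 near Cdc42ep1 and 159 at Cpne8. For replicate 2 the smallest were 58 bp at Jpt1, 70 at Snhg16, 84 at Pigl, 102 near Cdc42ep1 and 111 inside Meis2.

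Capzb, which encodes the beta subunit of actin capping protein, stood just inside the rule in both lists. Replicate 1 had a peak with a fold of 5.96 and 24 reads at chr4:139192963-139193372, and replicate 2 had one with a fold of 11.6 and 42 reads at chr4:139192326-139192791. Both stood at the start of the gene, and neither touched the other. In all, 7 protein-coding genes had a start peak in each list with no overlap between them: Capzb, Coasy, Dalrd3, Grk4, Mrpl38, Nop14 and Rnh1. Grk4 and Nop14 shared the same pair of peaks, 361 bp apart. The pairs at the other 4 genes were 2003 to 7259 bp apart, at different listed starts or boundaries of the gene.

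The numbers in the peak names gave a further view of the other list. The names count upward along the chromosomes to 10591 in replicate 1 and 9635 in replicate 2, so numbers are skipped where a numbered peak is not in the deposited list. For each member, the pair of listed peaks on either side in the other list was found, and the numbers between them were counted. At 544 of 752 replicate 1 members (72.3%, 69 to 75.4) the replicate 2 list skipped at least 1 number in that stretch. The replicate 1 list did so at 705 of 945 replicate 2 members (74.6%, 71.7 to 77.3). Of all stretches between neighbouring peaks, 15.8% of the replicate 2 list and 24.3% of the replicate 1 list held a skipped number. Where in its stretch the skipped peak lay is not given by the lists, so a skip does not place a peak at the member.

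Long stretches hold more skipped numbers, so stretches of like length were set side by side. Up to 50 kb, 56.2% (46.6 to 65.3) of the replicate 2 stretches that contained a member held a skip, against 5.16% of those without. The replicate 1 stretches gave 65.6% (55.3 to 74.6) and 10.3%. From 200 kb to 1 Mb the shares were 74.1% against 17.7% and 74% against 30.2%. Members outside genes were lowest in replicate 1, at 54.4% (43.5 to 65), and those at protein-coding starts stood at 78.1% (74.2 to 81.5). The replicate 2 members of those classes stood at 72.1% (60.4 to 81.3) and 75.6% (72.3 to 78.6).

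**Figure D4:**
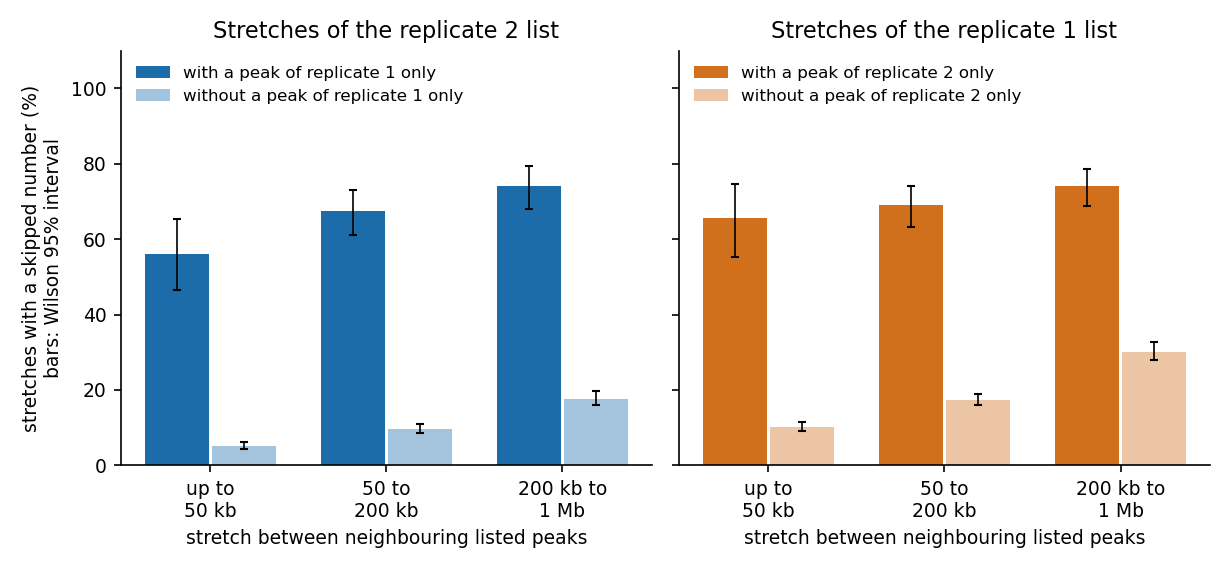
Share of stretches between neighbouring peaks of the other E2F1 list that hold at least 1 skipped peak number (y axis, percent, Wilson 95% intervals), by the length of the stretch (x axis), for stretches with a single-replicate peak (dark) and without one (light). The dark bars range from 56.2% to 74.1% and the light bars from 5.16% to 30.2%.

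Among the 10 members of highest fold, 7 in replicate 1 and 10 in replicate 2 lay where the other list skipped a number. Over all members counted, the shares were 72.3% and 74.6%. Psmd2, Rps3, Fam122b, Rsbn1, Itm2b and Atf2 each had 1 skipped number. The stretch around Chd2 had 5. No number was skipped at Rnf135, Lancl1 and Osbpl9 in replicate 1. Replicate 2 members of high fold with no skip included Paqr3 with 13.3 and 37 reads, and Nt5dc1 with 12.6 and 35 reads. At these 5 starts no peak had been numbered in the other list between its neighbouring peaks, the nearest of which lay 24598 to 210325 bp away.

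By genes, a start peak in replicate 1 only was found at 508 of 21887 protein-coding genes (2.32%) and in replicate 2 only at 779 (3.56%). Shared start peaks stood at 7041 (32.2%), so that 15.4% of the genes with any start peak had it in a single list. The gene lists below are described by their counts beside these values, and no list was tested. Cell-cycle genes were mostly in both lists. Of 50 G1/S genes, 49 had a shared start peak and Orc1, the largest subunit of the origin recognition complex, had one in replicate 1 only. The Orc1 peak had a fold of 5.87 and 23 reads over a background of 3.09, against a median fold of 21.6 for the shared peaks of the list.

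Of 60 G2/M genes, 52 had a shared start peak. Hmmr, a spindle protein and hyaluronan receptor, was in replicate 1 only, with a fold of 9.66 and 31 reads. Its peak also stood at the start of Nudcd2, which was the nearer, 243 bp from the summit. Bub3 and Bub1b, both of the spindle checkpoint, were in replicate 2 only with folds of 11.4 and 5.61. Cdc25b, a phosphatase that activates CDK1, was there too with 6.02. Among 33 RB/E2F regulators, 26 were shared and Lin37, a subunit of the MuvB core of the DREAM complex, was in replicate 2 only with a fold of 5.78. These counts, 1 of 50, 4 of 60 and 1 of 33 genes in a single list, compare with 5.88% of all protein-coding genes. Among genes with a start peak the shares in a single list were 2%, 7.14% and 3.7%, against 15.4% over all genes.

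Ribosomal protein genes had more members. Of 84, 47 had a shared start peak, 5 a peak in replicate 1 only and 18 (21.4%) in replicate 2 only, against 2.32% and 3.56% of all protein-coding genes. Rps3 was followed in replicate 1 by Rps24 with a fold of 9.05, Rps14 with 8.81 and Rps21 with 7.2. In replicate 2 the highest folds were those of Rps23 (12.6, 35 reads), Rpl3 (11.3, 38 reads), Rpl27a (10.5, 29 reads) and Rpl11 (8.98, 36 reads), and the lowest was 4.56. The median fold of the 18 was 6.62, close to 6.5 for all 779 genes with a start peak in replicate 2 only. Even the shared peaks of this list were low, with a median fold of 8.35 in replicate 1 and 9.24 in replicate 2, against 10.1 and 13 for all genes. A skipped number was found for 14 of the 18 (77.8%, 54.8 to 91). That was close to the 76.3% over all protein-coding genes with a start peak in replicate 2 only. Ribosomal protein genes have many processed copies elsewhere in the genome, and how reads with more than 1 match were placed is not given in the sources used here, so counts at these genes are uncertain.

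Other genes of translation and of the mitochondrion were counted next. In a single list stood 31.2% of the respiratory chain genes with a start peak, 16.9% of the mitochondrial ribosomal protein genes and 17.5% of the translation initiation factor genes, beside 32.9% of the ribosomal protein genes and 15.4% of all genes. Among 78 mitochondrial ribosomal protein genes, 48 were shared, Mrpl16 was in replicate 1 only (fold 5.59) and 9 were in replicate 2 only, led by Mrps33 (12.7), Mrpl45 (10.8), Mrps18a (7.81) and Mrps22 (7). Of 85 genes of the respiratory chain and ATP synthase, 33 were shared, 7 in replicate 1 only and 8 in replicate 2 only. Ndufb9, Ndufb11 and Ndufa3 of complex I and Cox7c of complex IV led in replicate 1, with folds of 6.91, 6.15, 5.57 and 5.97. Ndufb2 of complex I (9.76), Uqcrfs1, the iron-sulphur subunit of complex III (8.05), Atp5o of ATP synthase (7.58) and Ndufs6 (6.81) led in replicate 2. The Ndufs6 peak was also that of Mrpl36, counted among the mitochondrial ribosomal protein genes. Of 47 translation initiation factor genes, 33 were shared, Eif4g3, Eif3l and Eif3c were in replicate 1 only (5.15 to 6.35) and Eif2s2, Eif2b4, Eif1a and Eif2b3 in replicate 2 only (4.56 to 7.52).

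Proteasome genes were split evenly between the lists. Of 48, 27 were shared and 4 stood in each list alone. A single list held 16.7% of them, or 22.9% of those with a start peak, against 5.88% and 15.4% over all genes. Psma4 and Psmb4, subunits of the core particle, had folds of 8.01 and 7.34 in replicate 1, where Psmf1, an inhibitor of the proteasome, had 6.94. Replicate 2 alone had Psmb2, a core subunit (11.4), Psmg1, an assembly chaperone (6.74), Psmd8 (6.23) and Psmc1, an ATPase of the regulatory particle (5.34). Of 67 histone genes, 32 were shared and 5 stood in each list alone, all 10 on chromosome 13. That is 14.9% of the list, or 23.8% of its genes with a start peak. These are counts of genes, and some had the same peak. In replicate 1 these were H2ac23 with H2bc23 and H2ac24 with H4bc24, and in replicate 2 H2ac11 with H2bc11. They included H4c2 (7.02) in replicate 1 and H4c18 (10.5) in replicate 2. Histone genes of the same family are similar copies, so reads may not always be assignable to a single gene.

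**Figure D5:**
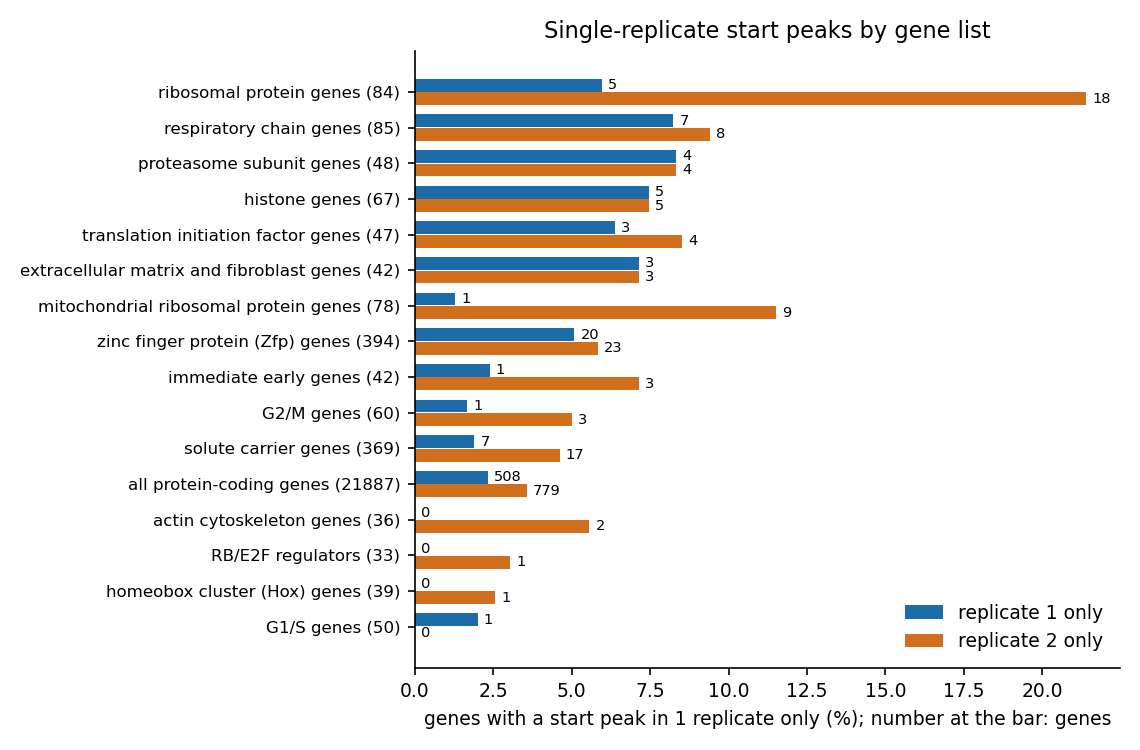
Share of the genes in each list with a start peak in replicate 1 only (blue) or replicate 2 only (orange), in percent (x axis), with the number of genes at the bar and the size of the list in brackets; lists with no such gene are left out. Ribosomal protein genes reach 21.4% in replicate 2, against 3.56% of all protein-coding genes.

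Fibroblast and signalling genes also held members. Of 42 immediate early genes, 26 were shared and 4 stood in a single list (9.52%, against 5.88% of all protein-coding genes). Among genes with a start peak the order was the other way, with 13.3% of this list and 15.4% of all. Per1, a clock gene, was in replicate 1 only (5.43), and Tnfaip3, an inhibitor of NF-kappaB signalling (6.56), Klf2, a transcription factor (5.13), and Dusp2, a phosphatase of MAP kinases (5.09), were in replicate 2 only. Of 42 extracellular matrix and fibroblast genes, 12 were shared and 6 stood in a single list, which is 14.3% of the list and 33.3% of its genes with a start peak, against 5.88% and 15.4% over all genes. Fbln5 of elastic fibres (6.83), the membrane protease gene Mmp14 (6.61) and the transcription factor gene Twist2 (6.41) were in replicate 1 only. Col1a1 (6.86) and Col6a2 (5.97), both collagen chains, and Cd44, a hyaluronan receptor (5.39), were in replicate 2 only. Of 36 actin cytoskeleton genes, 25 were shared and 2 were in replicate 2 only, among them Rock1, a kinase that promotes actomyosin contraction, with a fold of 15.4. That is 5.56% of the list, or 7.14% of its genes with a start peak.

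The large gene families were counted in the same way. Of 394 zinc finger (Zfp) genes, 145 had a shared start peak, 20 had one in replicate 1 only and 23 in replicate 2 only. The highest folds were at Zfp958 (8.07) and Zfp622 (11.3), and Zfp758 and Zfp944 had the same replicate 1 peak. A single list held 10.9% of the Zfp genes, or 22.9% of those with a start peak, against 5.88% and 15.4% over all genes. Solute carrier genes, 369 in all, had 110, 7 and 17, with Slc39a1 (7.34) and Slc25a5 (9.45) the highest, and a single list held 6.5% of them, or 17.9% of those with a start peak. Hoxc6 was the single member among 39 Hox genes (2.56%, or 16.7% of those with a start peak), in replicate 2 with a fold of 6.78. The lists of 34 nervous system, 34 haematopoietic, 49 keratin and 1106 olfactory receptor genes held 0 members, and of them the nervous system list alone had a shared peak, at 1 gene.

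Widths were extreme at the following members. Replicate 1 was widest near Erdr1 (4253 bp), near Vmn1r77 (2853 bp) and at Sox4, a transcription factor gene (2774 bp), all 3 on backgrounds of 5.22 to 12.3 times the genome-wide level. Its narrowest, 267 bp each, stood at the starts of Trmu, Zfp983 and Pgrmc1, on 1.04 to 2.09 times that level. In replicate 2 the next widest after the site near Apba2 were 2703 bp at Gm10222 and 1969 bp near Midn, and the narrowest, 252 bp each, stood at Wbp1, at Fan1 and 122072 bp from Dpp10. Backgrounds there were alike, 1 to 2.92 times the genome-wide level at the 3 widest and 1.04 to 2.71 times at the 3 narrowest. The lowest folds of replicate 2, 1.79 and 1.89, lay outside genes, on 42.7 and 36.7 times the genome-wide background. The nearest protein-coding starts were those of Gdi2, 164963 bp away, and Pex2, 281972 bp away.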

How the data were processed

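ChIP-seq peak lists of 2 E2F1 and 2 EV libraries of NIH/3T3 cells were used, 1 list per library, grouped by the sample titles. Per the submitters' processing notes, FastQC, Trimmomatic, Bowtie2, MACS2 and ChIPseeker and the mm10 build were used, with no versions given; the labels' extract protocol describes RNA. The deposited score is a whole number per peak, and the deposited fold is a ratio of pileup to local background. The authors' −log10 p and −log10 q values complete each entry. These values were used within a list only, to describe and rank peaks. Sequencing depth is not given, and the genome-wide background was its stand-in. That background is the lowest local background solved among the peaks of a list and was not measured over the genome. It was 1.85 and 1.86 reads in the E2F1 lists and 2.2 and 1.18 in the EV lists.

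Peaks were compared by overlap of 1 bp or more, and coordinates count from 1. Pileup and background were solved from fold and p-value with a Poisson tail, giving whole pileups within 0.05 reads for 99.99% and 99.98% of E2F1 peaks. Genes came from RefSeq (GRCm38.p6). A gene start was used for the 17492 of 21887 protein-coding genes with strand in the promoter table, and either boundary for the others. Motif letters were searched on both strands of 300 promoter bases. Wilson 95% intervals were computed in Python 3.11.15 (pandas 2.3.3, numpy 2.4.6), and the code was tested on simulated data. Members and gene lists were chosen with earlier results of these data known. Named were, per replicate, the 10 members of highest fold and of highest score, the 3 of lowest fold, widest and narrowest, 5 on either side of the overlap rule, EV-overlapped members, and per gene list the members where 6 or fewer, otherwise the 4 of highest fold. The 16 EV-overlapped members of replicate 1 and the members with no skipped number were named after their values were seen. Alternatives were other overlap rules, distances and gene boundaries. Members on unplaced scaffolds were left out. Some members that the naming rule selects are not reported here.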

Additional observations from a re-analysis of the deposited data

Results flagged for a closer look

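The mitochondrial chromosome was outside the comparisons above. The replicate 2 list held 2 peaks there that no replicate 1 peak overlapped, and the EV lists held 0. They spanned bases 112 to 9313, with a fold of 10.1 and 28 reads at the summit, and bases 10327 to 16033, with a fold of 11.9 and 33 reads.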

How the results depend on the processing

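Each deposited list comes from 1 library, and the rule needs both E2F1 lists, so no replicate could be left out. No paired analysis was possible because the results come from no test over samples. Of 44 alternatives over 12 results, 31 stayed within 1.5 times the count or inside the 95% interval of the share. The number of members depended on the overlap rule: with a reciprocal overlap of 50% it was 1405 in replicate 1 and 1595 in replicate 2, and with centres within 200 bp it was 2260 and 2450. Members at or above the median score numbered 7 and 24. The share at protein-coding starts was 58.7% in replicate 1 with a distance of 500 bp, and 71.2% and 80.2% with 2500 bp. The alternatives chosen after seeing the data numbered 8. Of these, either gene boundary gave 59.1% and 70.5% at protein-coding starts, and neighbours within 50 kb gave 62.4% and 67.7% of members with a skipped number. The lists begin at a −log10 p of 10, so a peak missing from a list does not mean no signal there.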

Other observations

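Outside the assembled chromosomes, the replicate 1 list held 3 peaks that replicate 2 did not overlap, all on 1 unplaced scaffold, with folds of 1.86 to 2.3 and 126 to 144 reads at the summit. Replicate 2 held 2 on unplaced scaffolds, with folds of 1.72 and 1.83 and 384 and 401 reads.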
